A study of Mus musculus with 4 samples.

Results

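The genes described here encode the calcitonin gene-related peptide (CGRP) and adrenomedullin signalling system of mouse skin. All 8 genes were chosen by symbol from the 25571 genes of the expression table: the peptide genes Calca, Calcb, Adm and Adm2, the receptor gene Calcrl, and the receptor activity-modifying protein genes Ramp1, Ramp2 and Ramp3. The choice was made with the values known, since Calcb had the lowest difference of MNs against NC, so its values in these libraries are a description only. Skin RNA was sequenced from mice of the groups PRP-MNs, PRP, MNs and NC, each represented by 1 library. The series title concerns platelet-rich plasma (PRP), a platelet concentrate of blood, delivered with microneedles (MNs), arrays of fine needles, to promote hair regrowth. What NC stands for is not spelled out in the labels, and that group served as the reference. Strain, genotype, sex, age, dose, time of harvest and the number of animals behind a library are not stated in the sources used here. With 1 library per group no difference can be set against a spread between animals, and the values speak for these libraries alone.

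CGRP and adrenomedullin are related peptide hormones of the calcitonin family that relax vessels and raise cyclic AMP in their target cells. They share 1 receptor, the product of Calcrl, which reaches the cell surface only with a partner from the RAMP family. With the product of Ramp1 it forms the CGRP receptor, and with the products of Ramp2 or Ramp3 it forms adrenomedullin receptors. CGRP in skin is known mainly from peptidergic sensory nerve fibres, whose cell bodies lie in the dorsal root ganglia. Adrenomedullin is made by many cell types, and with Calcrl and Ramp2 it is needed for normal blood and lymphatic vessels in mice.

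Values are FPKM, fragment counts scaled to the length of the transcript and to the total fragments of the library. Spacing of the low values put the depth near 17.2 M fragments for PRP-MNs, 15.9 M for PRP, 18.6 M for MNs and 19.4 M for NC. From these depths and the longest coding transcript of each gene, an approximate number of fragments and an exact 95% Poisson interval were derived for every value. These intervals cover counting error only, not the spread between animals. The labelled tissue was checked against its markers. All 9 keratinocyte genes had values above 0 in every library, with a summed level between 4223 FPKM for PRP-MNs and 24320 FPKM for NC. Skeletal muscle markers were also high, with sums of 7793 FPKM for PRP-MNs, 9277 FPKM for PRP, 5170 FPKM for MNs and 5305 FPKM for NC. In PRP-MNs their sum was above that of the keratinocyte markers. The check shows that epidermis was present, and the share of each tissue was not measured.

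Calcb and Calca encode the beta and alpha forms of CGRP, and a coding stretch of each is shown because fragments from it could be assigned to either gene. Both genes lie on mouse chromosome 7 of GRCm38, Calcb (ENSMUSG00000030666) on the plus strand from 114718643 to 114723365 and Calca (ENSMUSG00000030669) on the minus strand from 114631478 to 114636357. The stretches are the most alike pair of 111 coding bases, read 5′ to 3′ from GENCODE release M21 transcripts at chr7:114721975-114722085 on the plus strand and chr7:114632489-114632599 on the minus strand. Capitals mark the bases that differ.
Calcb: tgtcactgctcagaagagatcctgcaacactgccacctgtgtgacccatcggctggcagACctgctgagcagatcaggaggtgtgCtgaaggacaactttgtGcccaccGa
Calca: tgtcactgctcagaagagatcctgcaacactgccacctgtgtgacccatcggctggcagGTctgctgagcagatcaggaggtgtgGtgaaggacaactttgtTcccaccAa
The stretches were identical at 106 of 111 bases (95.5%), and the longest identical run between these coding sequences was 61 bases. Of 657 windows of 50 bases along the Calcb transcript with the longest coding sequence, 12 also occurred in a Calca transcript (1.83%). The levels of this pair are therefore uncertain where fragments fell in that run.

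Of the CGRP peptide genes, Calcb was the one listed above 0, and its level differed widely between libraries. Calcb stood at 1.57 FPKM for PRP-MNs, 12.3 FPKM for PRP, 0.733 FPKM for MNs and 25.3 FPKM for NC. It was thus high in NC, intermediate in PRP and low in both libraries with microneedles. Counting intervals were 1.02 to 2.30 FPKM for PRP-MNs, 10.5 to 14.1 FPKM for PRP, 0.387 to 1.24 FPKM for MNs and 23.1 to 27.7 FPKM for NC. The order from NC through PRP to the microneedle libraries lay outside counting error, whereas PRP-MNs and MNs overlapped, at about 26 and 13 fragments. The difference in log2(FPKM + 1) was −3.35 for PRP-MNs against NC, −0.99 for PRP against NC and −3.92 for MNs against NC. The MNs value was the lowest difference of the 13925 genes tested in that comparison, which is the reason for the choice of this gene. In MNs against NC, Calcb passed the filter of 1 FPKM only through NC.

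Calca was listed at 0 FPKM in every library. For its longest transcript 3 fragments would be 0.175 FPKM for PRP-MNs, 0.190 FPKM for PRP, 0.163 FPKM for MNs and 0.156 FPKM for NC, so levels below these were not detectable at this depth.

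**Figure D1:**
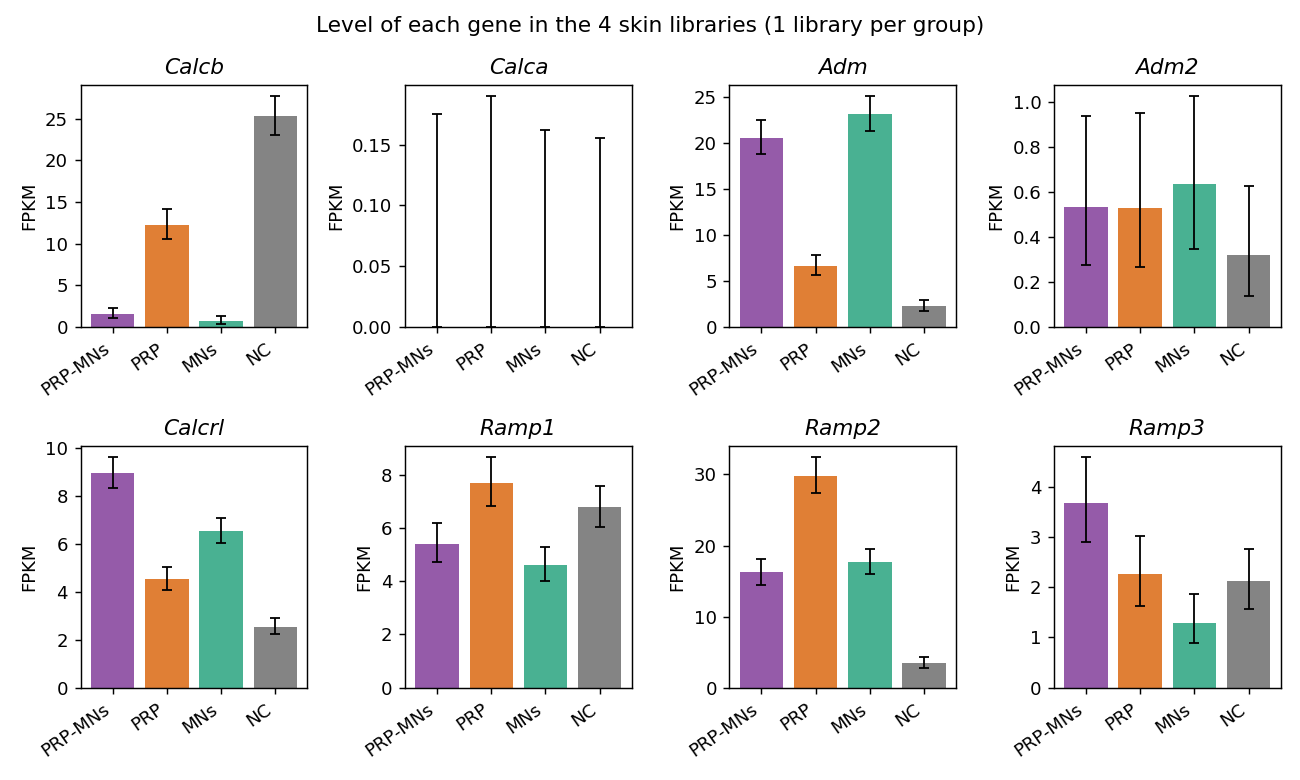
FPKM (vertical axis, linear from 0, scaled separately for each gene) of the 8 genes in the PRP-MNs, PRP, MNs and NC libraries, with 1 library per bar and error bars giving approximate 95% counting intervals or, for Calca, the level of 3 fragments. Calcb is highest in NC at 25.3 FPKM, Adm is highest in MNs at 23.1 FPKM, Ramp2 is highest in PRP at 29.8 FPKM, and Calca is at 0 throughout.

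Adm encodes adrenomedullin and was higher in the 3 other libraries than in NC. Adm (ENSMUSG00000030790, chromosome 7 from 110627661 to 110629820, plus strand) stood at 20.6 FPKM for PRP-MNs, 6.65 FPKM for PRP, 23.1 FPKM for MNs and 2.22 FPKM for NC. Both libraries with microneedles were high, with overlapping counting intervals of 18.8 to 22.4 FPKM for PRP-MNs and 21.3 to 25.1 FPKM for MNs. PRP, at 5.62 to 7.82 FPKM, and NC, at 1.70 to 2.87 FPKM, lay apart from these and from each other. The log2 difference from NC was 2.74 for PRP-MNs, 1.25 for PRP and 2.91 for MNs, which was rank 105 from the top among the 13925 genes tested for MNs. These 3 differences share the NC library. PRP-MNs differed from PRP by 1.50 and from MNs by −0.16.

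The promoter of Adm is shown because adrenomedullin is a known target of the hypoxia-inducible factors, which bind a core spelled ACGTG and also bind its variant with a different first letter, GCGTG. The 250 bases before the start site are from RefSeq (GRCm38.p6, chr7:110627407-110627656, plus strand), read 5′ to 3′. Capitals mark GCGTG on the opposite strand, which reads CACGC here.
Adm: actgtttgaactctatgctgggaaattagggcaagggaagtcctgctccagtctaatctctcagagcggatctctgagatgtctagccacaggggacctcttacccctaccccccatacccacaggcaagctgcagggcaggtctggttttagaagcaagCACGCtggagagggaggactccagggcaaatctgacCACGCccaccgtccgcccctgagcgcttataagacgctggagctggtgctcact
GCGTG lay at 90 and 54 bases before the start, and the other core was not among these letters on either strand. Of 32851 promoter windows of this length, 28.2% held GCGTG on either strand and 38.6% held at least 1 of both cores. RefSeq windows were matched for 6 of the 8 genes, and the window of Ramp3, whose level did not follow that of Adm, also held 2 matches to GCGTG. A match of letters is a description and not a binding site.

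Adm2, which encodes adrenomedullin 2 (intermedin), was low throughout. Adm2 (ENSMUSG00000054136, chromosome 15 from 89322720 to 89324731) stood at 0.534 FPKM for PRP-MNs, 0.529 FPKM for PRP, 0.638 FPKM for MNs and 0.319 FPKM for NC, which corresponds to about 12, 11, 15 and 8 fragments in that order. All neighbouring counting intervals overlapped. It did not reach the filter of 1 FPKM in any library and was not tested.

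Calcrl, the shared receptor gene, was higher in the 3 other libraries than in NC, and highest in PRP-MNs. Calcrl (ENSMUSG00000059588, chromosome 2 from 84330626 to 84425411, minus strand) stood at 8.95 FPKM for PRP-MNs, 4.52 FPKM for PRP, 6.54 FPKM for MNs and 2.55 FPKM for NC. All 4 counting intervals were apart, in the order PRP-MNs, MNs, PRP, NC. The log2 difference from NC was 1.49 for PRP-MNs, 0.64 for PRP and 1.09 for MNs, the last being 0.93, below 2-fold, when centred on the median of all genes. Between PRP-MNs and PRP the difference was 0.85, and between PRP-MNs and MNs it was 0.40.

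Ramp2, the main adrenomedullin partner of Calcrl in vessels, was highest in PRP. Ramp2 (ENSMUSG00000001240, chromosome 11 from 101246028 to 101259546, plus strand) stood at 16.2 FPKM for PRP-MNs, 29.8 FPKM for PRP, 17.6 FPKM for MNs and 3.49 FPKM for NC. The PRP library was high and NC low, both outside the counting intervals of the other libraries, whereas PRP-MNs and MNs overlapped. The log2 difference from NC was 1.94 for PRP-MNs, 2.78 for PRP and 2.06 for MNs, and the PRP difference held rank 49 from the top among 13533 genes. The exons of Ramp2 share 1103 bases with those of Vps25, a gene of endosomal sorting on the same strand, through 1 of the 8 annotated Ramp2 transcripts. Vps25 ran the other way in PRP, at 56.9 FPKM for PRP-MNs, 38.6 FPKM for PRP, 65.1 FPKM for MNs and 67.7 FPKM for NC. The sum of both genes was 73.1 FPKM for PRP-MNs, 68.4 FPKM for PRP, 82.7 FPKM for MNs and 71.2 FPKM for NC. How fragments were assigned between these genes could affect the level of Ramp2, and its part in the differences was not tested.

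Ramp1, the CGRP receptor partner, varied least among the genes at 1 FPKM or more. Ramp1 (ENSMUSG00000034353, chromosome 1 from 91179822 to 91225196, plus strand) stood at 5.41 FPKM for PRP-MNs, 7.70 FPKM for PRP, 4.62 FPKM for MNs and 6.79 FPKM for NC. Both libraries with microneedles were the lower ones, and each pair of neighbours in the order overlapped in counting error. MNs lay apart from NC, and PRP lay apart from PRP-MNs and MNs. The log2 difference from NC was −0.28 for PRP-MNs, 0.16 for PRP and −0.47 for MNs, none of them as much as 2-fold.

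Ramp3, the other adrenomedullin partner, was highest in PRP-MNs and lowest in MNs. Ramp3 (ENSMUSG00000041046, chromosome 11 from 6658521 to 6677475, plus strand) stood at 3.67 FPKM for PRP-MNs, 2.25 FPKM for PRP, 1.29 FPKM for MNs and 2.11 FPKM for NC. Each pair of neighbours in this order overlapped in counting error, at about 78, 44, 30 and 50 fragments in the order of libraries given. The log2 difference from NC was 0.59 for PRP-MNs, 0.06 for PRP and −0.44 for MNs. The difference of PRP-MNs against MNs was 1.03, just past 2-fold, and these libraries lay apart in counting error. Exons of Ramp3 overlap a processed pseudogene, Gm11978, on the opposite strand, and strandedness of the libraries is not stated.

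Because FPKM is scaled to transcript length, the levels of the partners can be set against each other within a library. Ramp2 held 64.1% of the summed Ramp FPKM for PRP-MNs, 75.0% for PRP, 74.9% for MNs and 28.1% for NC. Ramp1 held 21.4% for PRP-MNs, 19.4% for PRP, 19.6% for MNs and 54.8% for NC, and Ramp3 held 14.5%, 5.66%, 5.48% and 17.0% in the same order. In NC the CGRP receptor partner was thus the most abundant, and in each of the other libraries the adrenomedullin partner Ramp2 was. The ratio of Ramp1 to Calcrl was 0.604 for PRP-MNs, 1.71 for PRP, 0.706 for MNs and 2.66 for NC. The ratio of Ramp2 to Calcrl was 1.81 for PRP-MNs, 6.60 for PRP, 2.70 for MNs and 1.37 for NC. The Ramp2 shares and ratios carry the uncertainty of the exons shared with Vps25. On the peptide side the ratio of Adm to Calcb was 13.1 for PRP-MNs, 0.543 for PRP, 31.6 for MNs and 0.0877 for NC. Since the MNs and NC values chose Calcb, nothing is read from the order of these ratios.

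**Figure D2:**
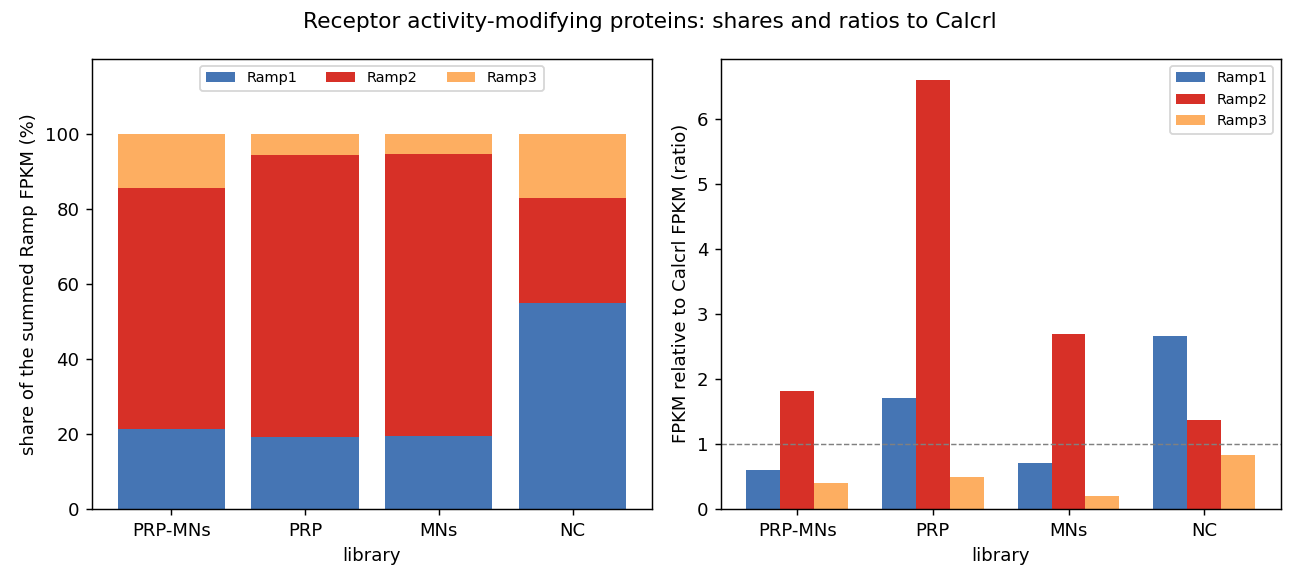
Left, the share of the summed Ramp FPKM (%) held by Ramp1, Ramp2 and Ramp3 in each library. Right, the ratio of each Ramp FPKM to the Calcrl FPKM, with a dashed line at 1. Ramp1 holds 54.8% for NC and between 19.4% and 21.4% in the other libraries, and the Ramp2 ratio is highest in PRP at 6.60.

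To be compared, a gene had to stand at 1 FPKM or more in either library, and a difference of 1 in log2(FPKM + 1), or 2-fold, was counted. Of the 8 genes, 6 passed this filter in each comparison, and Calca and Adm2 passed in none. In PRP-MNs against NC 4 of 6 differed by at least 2-fold, as did 29.1% of all genes tested. Adm, Ramp2 and Calcrl were higher (17.6% of all genes) and Calcb was lower (11.5%). In PRP against NC 2 of 6 differed by that much (9.24% of all genes), Ramp2 and Adm, both higher (7.78%), and none was lower (1.46%). Calcb in PRP lay just under this limit at −0.99. In MNs against NC 4 of 6 differed (22.8% of all genes). Adm, Ramp2 and Calcrl were higher (15.7%) and Calcb was lower (7.12%). The MNs and NC values of Calcb chose the gene, so nothing is read from its part in the counts of comparisons against NC. The share of higher genes among all those counted for MNs against NC was 68.8%, and 57.8% when centred on the median.

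In PRP-MNs against PRP 2 of 6 genes differed by at least 2-fold (17.0% of all genes), Adm higher (9.54%) and Calcb lower (7.50%). Calcb was at −2.37 in that comparison. In PRP-MNs against MNs 1 of 6 did (14.5% of all genes), Ramp3 higher (7.16%), and none was lower (7.39%). Calcb was at 0.57 and Ramp2 at −0.11 there. The median difference of all genes tested was 0.14 in PRP-MNs, 0.04 in PRP and 0.16 in MNs against NC. Giving every library the same FPKM sum raised these medians by 0.14, 0.04 and 0.18, in that order, and none of these differences of the 6 genes changed direction under any scaling.

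**Figure D3:**
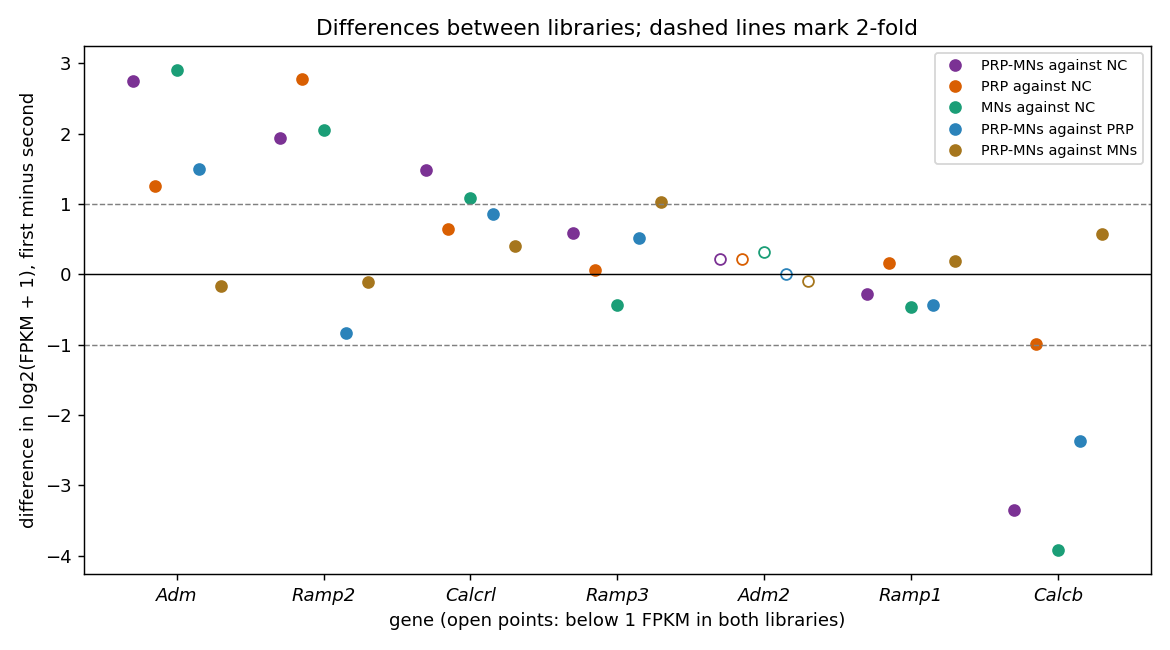
Differences in log2(FPKM + 1), first library minus second, for 7 of the genes in 5 comparisons, with dashed lines at 2-fold and open points where neither library reached 1 FPKM. Adm lies above the upper line in 4 comparisons, Calcb lies below the lower line in 3, and Ramp1 lies between the lines in all 5.

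Markers of blood vessel endothelium were higher than in NC where Calcrl, Ramp2 and Adm were, whereas Ramp1 and Ramp3 did not follow them. Of all genes tested, 17.6% in PRP-MNs, 7.78% in PRP and 15.7% in MNs were at least 2-fold above NC. At least 2-fold below NC were 11.5%, 1.46% and 7.12%, in that order. These shares stand beside the marker counts here and in the next paragraphs. At 2-fold or more above NC were all 12 endothelial markers in PRP-MNs, 7 of 12 in PRP and 11 of 12 in MNs. Their medians were 2.54, 1.07 and 1.90. Their summed level was 312 FPKM for PRP-MNs, 115 FPKM for PRP, 236 FPKM for MNs and 40.0 FPKM for NC, and no marker was at 0 in any library. Their sum was lower in PRP than in PRP-MNs and MNs, whereas Ramp2 was highest there. Pecam1, an endothelial adhesion gene, stood at 79.1 FPKM for PRP-MNs, 21.9 FPKM for PRP, 46.5 FPKM for MNs and 6.83 FPKM for NC. In bulk skin, fewer cells of a type and less RNA per cell cannot be told apart. Per 1000 FPKM of these markers, Calcrl stood at 28.7 for PRP-MNs, 39.3 for PRP, 27.7 for MNs and 63.7 for NC, highest in NC, where its level was lowest. Ramp2 per 1000 FPKM stood at 51.9 for PRP-MNs, 259 for PRP, 74.7 for MNs and 87.2 for NC. Ramp3 per 1000 FPKM stood at 11.7 for PRP-MNs, 19.6 for PRP, 5.47 for MNs and 52.8 for NC. Adm per 1000 FPKM stood at 65.8 for PRP-MNs, 57.8 for PRP, 98.0 for MNs and 55.5 for NC, a narrower range than that of its level. The part of these markers in the differences of these genes was not tested.

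Lymphatic endothelium, where Calcrl and Ramp2 are also known to act, did not follow a single direction. Of its 8 markers, 5 passed the filter between PRP-MNs and NC, with 2 higher and 2 lower by 2-fold or more, and 7 passed between MNs and NC, with 6 higher. The lymphatic hyaluronan receptor gene Lyve1 stood at 2.91 FPKM for PRP-MNs, 6.57 FPKM for PRP, 33.9 FPKM for MNs and 7.84 FPKM for NC. In PRP against NC 1 of 4 was at least 2-fold higher. The summed level was 135 FPKM for PRP-MNs, 44.9 FPKM for PRP, 213 FPKM for MNs and 28.7 FPKM for NC, most of it from Pdpn in PRP-MNs (125 FPKM), a gene that other skin cells also express. Markers of smooth muscle and pericytes, on which CGRP acts as a vasodilator, were at least 2-fold higher than in NC for 6 of 10 in PRP-MNs, 4 of 10 in PRP and 9 of 10 in MNs, whereas Ramp1 was not. Their summed level was 232 FPKM for PRP-MNs, 161 FPKM for PRP, 356 FPKM for MNs and 67.9 FPKM for NC.

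Monocyte and macrophage markers were, like Adm, higher in the 3 other libraries than in NC, and macrophages can express Adm. Among those 3 libraries they did not follow Adm. The sum of the markers was close in PRP and MNs, where Adm stood at 6.65 and 23.1 FPKM. It was higher in PRP-MNs than in MNs, where Adm overlapped in counting error. At least 2-fold higher than in NC were 8 of 9 in PRP-MNs, 8 of 9 in PRP and 9 of 9 in MNs, with summed levels of 1583 FPKM for PRP-MNs, 484 FPKM for PRP, 538 FPKM for MNs and 104 FPKM for NC. Adm per 1000 FPKM of these markers was 13.0 for PRP-MNs, 13.8 for PRP, 43.0 for MNs and 21.4 for NC. None of these markers was at 0 in any library, and their part in the level of Adm was not tested.

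Keratinocyte markers, like Calcb, had their highest summed level in NC and the next highest in PRP. Between the libraries with microneedles their sum was lower in PRP-MNs than in MNs, whereas the counting intervals of Calcb overlapped. At 2-fold or more below NC were 8 of 9 markers in PRP-MNs, 1 in PRP and 5 in MNs, with medians of −2.17, −0.55 and −1.24. Their summed level was 4223 FPKM for PRP-MNs, 14948 FPKM for PRP, 8400 FPKM for MNs and 24320 FPKM for NC. Per 1000 FPKM of these markers Calcb stood at 0.373 for PRP-MNs, 0.820 for PRP, 0.0872 for MNs and 1.04 for NC. Since the MNs and NC values chose Calcb, nothing is read from its likeness to these markers or from the order of these ratios. The part of these markers in the level of Calcb was not tested.

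**Figure D4:**
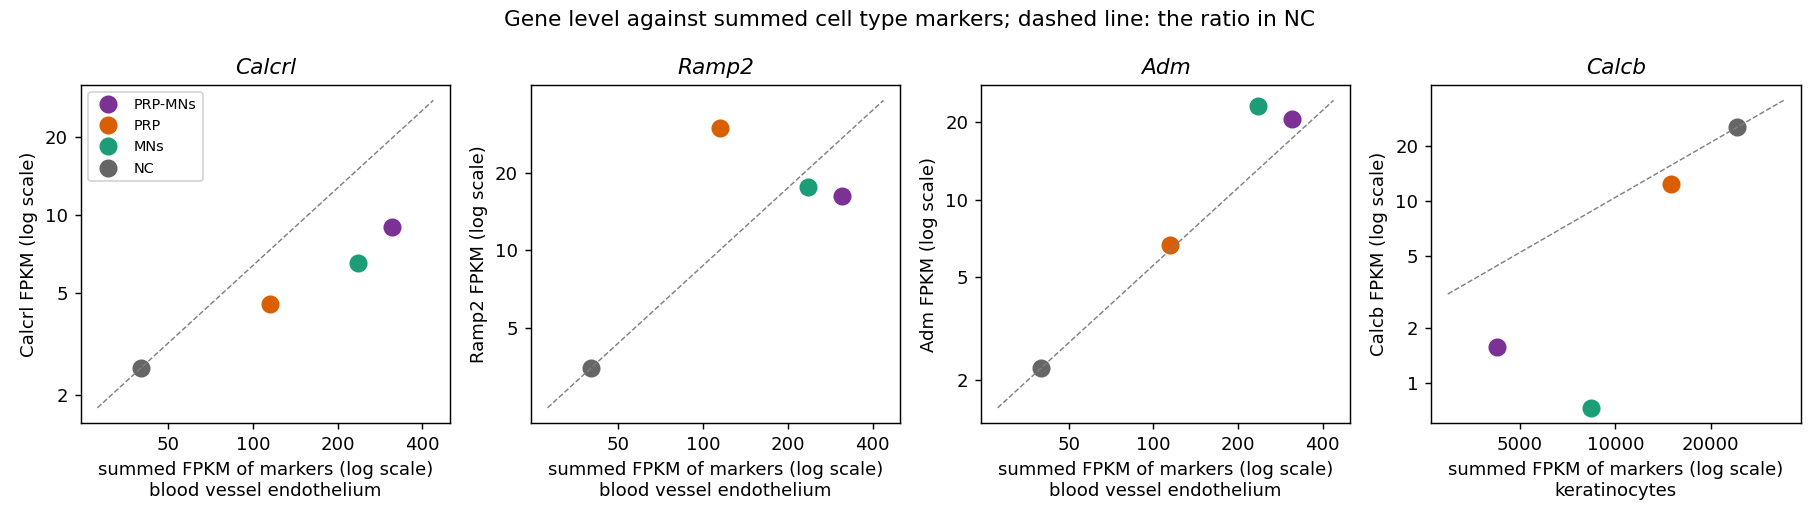
FPKM of Calcrl, Ramp2, Adm and Calcb (vertical, log scale) against the summed FPKM of markers of blood vessel endothelium or keratinocytes (horizontal, log scale), with 1 point per library and a dashed line at the ratio of NC. Calcrl lies under the line in the 3 other libraries, and Ramp2 lies far above it in PRP at 259 per 1000. Calcb in MNs is at 0.0872 per 1000, from which nothing is read, since the MNs and NC values chose Calcb.

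The genes nearest in pattern were sought among 10120 genes with at least 5 FPKM in a library, by the Euclidean distance between log2(FPKM + 1) profiles centred on their mean over the 4 libraries. With 4 libraries such likeness is a description. Nearest to Calcb were Lce1d, Lce1b and Lce1l, late cornified envelope genes of the outer epidermis, at distances of 0.36, 0.38 and 0.45. Since the MNs and NC values chose Calcb, nothing is read from its neighbours. Lce1d stood at 35.4 FPKM for PRP-MNs, 196 FPKM for PRP, 30.5 FPKM for MNs and 339 FPKM for NC. Genes of the Lce cluster are near-identical copies, so fragments may have been divided among them and their values are uncertain. Nearest to Adm were Lrrc32, a carrier of latent TGF-beta, the matrix protease gene Adamts1 and the hyaluronan receptor gene Layn, at 0.09, 0.11 and 0.12. Nearest to Calcrl were Ergic1, Sdf2l1 and Plcg2 (0.02, 0.04 and 0.07), and nearest to Ramp1 were Styx, Psmd8 and Cab39 (0.04, 0.07 and 0.09). Genes near Ramp2 were farther off, with Mgp at 0.65 and Cp at 0.72. Between genes of the group, the distance of Adm from Calcrl was 1.36 and that of Adm from Calcb was 5.60. The latter includes the values that chose Calcb, so nothing is read from it.

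Other genes that act on these peptides or downstream of the receptor were read from lists chosen by function. Among 10 genes of peptide processing and breakdown, 7 were tested between PRP-MNs and NC, of which 1 was higher and 2 were lower by 2-fold or more, beside 17.6% and 11.5% of all genes. The higher share was near that of all genes. Ece1, an endothelin-converting enzyme that also degrades neuropeptides, stood at 57.0 FPKM for PRP-MNs, 31.5 FPKM for PRP, 55.3 FPKM for MNs and 25.2 FPKM for NC. Ide, the insulin-degrading enzyme gene, stood at 52.1 FPKM for PRP-MNs, 81.9 FPKM for PRP, 78.9 FPKM for MNs and 117 FPKM for NC. The list median was 0.05 for PRP-MNs, 0.00 for PRP and 0.41 for MNs against NC. In PRP 0 of 7 passed 2-fold in either direction (9.24% of all genes). In MNs 1 of 7 was higher, near the 15.7% of all genes, and 0 were lower (7.12%). Of other receptors of these peptides, Ackr3, which scavenges adrenomedullin, stood at 21.3 FPKM for PRP-MNs, 22.2 FPKM for PRP, 24.7 FPKM for MNs and 11.0 FPKM for NC. It was the only one of that list past 2-fold, in MNs (1.09), among 3 of 5 genes tested in PRP-MNs and MNs and 2 of 5 in PRP. Past 2-fold in either direction were 29.1% of all genes in PRP-MNs, 9.24% in PRP and 22.8% in MNs.

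Genes of cyclic AMP signalling act below the receptor. By 2-fold or more, 8 of 18 were higher (17.6% of all genes) and 1 was lower (11.5%) in PRP-MNs against NC, with a median of 0.87. In MNs against NC 8 of 18 were higher (15.7%) and 0 lower (7.12%), with a median of 0.88. In PRP against NC 1 of 18 was higher, near the 7.78% of all genes, and 1 was lower (1.46%), with a median of 0.43. Pde4b, a phosphodiesterase that breaks down cyclic AMP, stood at 45.0 FPKM for PRP-MNs, 9.60 FPKM for PRP, 26.9 FPKM for MNs and 6.91 FPKM for NC. Crem, a cyclic AMP responsive transcription factor gene, stood at 34.3 FPKM for PRP-MNs, 6.38 FPKM for PRP, 13.4 FPKM for MNs and 7.81 FPKM for NC. These genes serve many receptors besides Calcrl.

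Genes of other sensory neuropeptides and of related receptors and factors were mostly low, as Calca was. Of 12 such genes, 6 were listed at 0 for PRP-MNs, 6 for PRP, 4 for MNs and 8 for NC. Of those tested, 2 of 4 were higher (17.6% of all genes) and 1 lower (11.5%) by 2-fold or more in PRP-MNs against NC. In PRP 0 of 2 were higher (7.78%) and 1 was lower (1.46%). In MNs 1 of 3 was higher (15.7%) and 1 was lower (7.12%).

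Other targets of the hypoxia-inducible factors were read beside Adm. Of 15 such genes tested between PRP-MNs and NC, 1 was higher (17.6% of all genes) and 1 lower (11.5%) by 2-fold or more, with a list median of 0.21 beside a median of 0.14 over all genes tested. The higher one was P4ha1, a collagen prolyl hydroxylase subunit, at 25.5 FPKM for PRP-MNs and 8.70 FPKM for NC. The lower one was Higd1a, a mitochondrial protein gene, at 15.6 FPKM for PRP-MNs and 33.1 FPKM for NC. In PRP (7.78% of all genes higher) and in MNs (15.7%), 1 of 16 was at least 2-fold higher than in NC and 0 were lower, with list medians of 0.27 for PRP and 0.09 for MNs. Vegfa, the vascular growth factor gene, differed from NC by 0.87 for PRP-MNs, 0.83 for PRP and 0.62 for MNs.

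Genes of other vasoactive peptides and of nitric oxide signalling were at least 2-fold higher than in NC for 8 of 11 tested in PRP-MNs (17.6% of all genes). They were so for 2 of 10 in PRP (7.78%) and 9 of 10 in MNs (15.7%), with none lower by 2-fold. The medians were 1.61 for PRP-MNs, 0.78 for PRP and 1.51 for MNs. Apln, the apelin gene of sprouting vessels, stood at 24.3 FPKM for PRP-MNs, 1.06 FPKM for PRP, 2.87 FPKM for MNs and 0.277 FPKM for NC. The endothelial nitric oxide synthase gene Nos3 stood at 12.7 FPKM for PRP-MNs, 3.01 FPKM for PRP, 5.09 FPKM for MNs and 1.04 FPKM for NC. Apln and Nos3 were thus highest in PRP-MNs, whereas Adm was as high in MNs as in PRP-MNs within counting error. Endothelial markers moved the same way as this list, as given above, and their part in it was not tested.

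**Figure D5:**
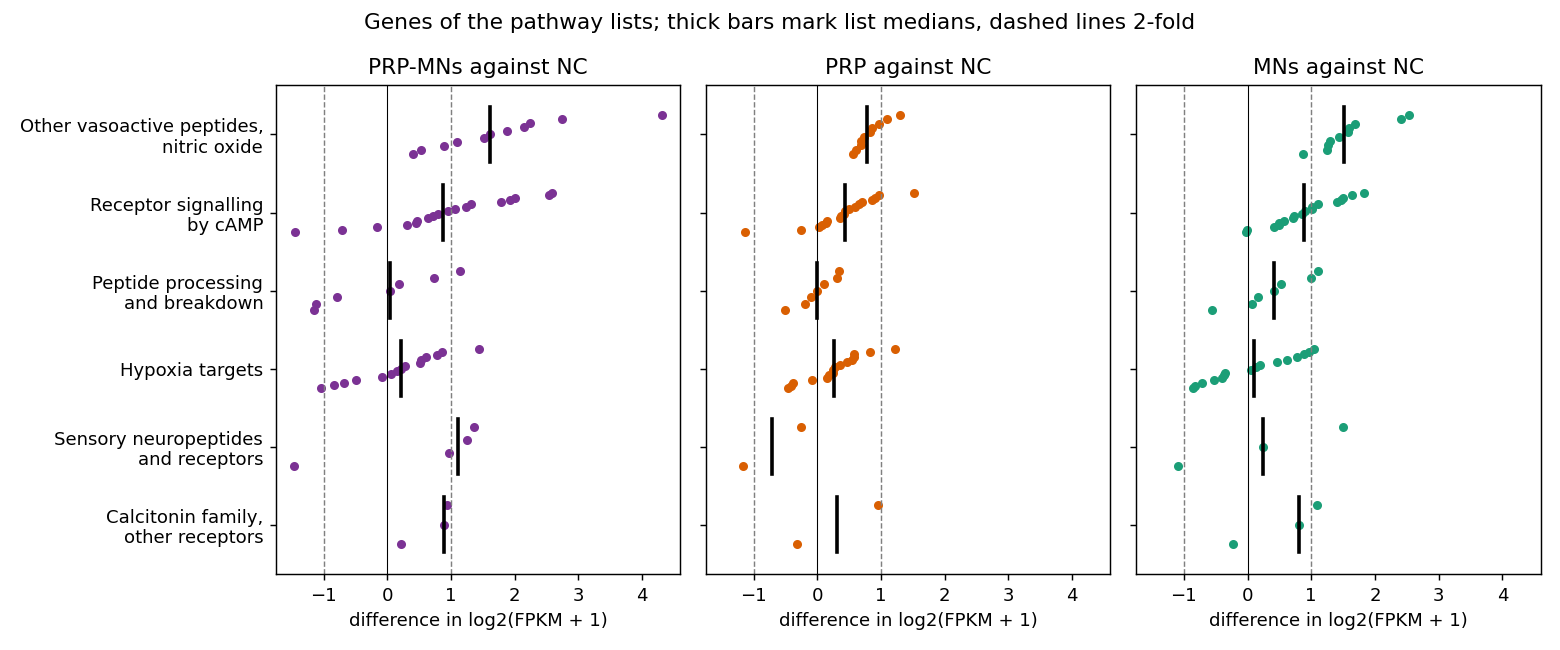
Differences in log2(FPKM + 1) from NC of the genes at 1 FPKM or more in 6 pathway lists, for PRP-MNs, PRP and MNs, with 1 point per gene, thick bars at list medians and dashed lines at 2-fold. The vasoactive list has medians of 1.61, 0.78 and 1.51, and the hypoxia targets have medians of 0.21, 0.27 and 0.09.

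By their names, the groups combine PRP or none with microneedles or none. The difference of differences, PRP-MNs minus MNs less PRP minus NC, was −2.90 for Ramp2, 1.56 for Calcb, −1.41 for Adm, 0.96 for Ramp3, −0.24 for Calcrl and 0.03 for Ramp1 on the log2 scale, the last turning to −0.04 with every library rescaled to the same FPKM sum. Between PRP-MNs and MNs, Ramp2, Calcb and Adm each differed by less than 1 in log2(FPKM + 1). Split that way, the larger difference was PRP against NC, at 2.78 for Ramp2, −0.99 for Calcb and 1.25 for Adm. Split as PRP-MNs against PRP and MNs against NC, the larger was MNs against NC, at 2.06, −3.92 and 2.91 in that order. Either split gives the same difference of differences, so it is not assigned to a single comparison. For Calcb, whose MNs and NC values chose the gene, the first split was nearly even at a lower pseudocount. With a pseudocount of 0.1, Calcb was at 1.01 in PRP-MNs against MNs and at −1.04 in PRP against NC. The difference of differences has no error term, since each of its 4 values is 1 library.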

How the data were processed

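The authors deposited 1 table of FPKM values with 1 column per library. Libraries were made from 1 μg of RNA, per the labels' protocols, and GRCm38 was the build, per the submitters' processing notes. For aligner, quantification tool and annotation, the sources used here name none. Of 22036 Ensembl identifiers, 22022 matched GENCODE release M21 (GRCm38). FPKM is scaled within a library, so abundant genes shift all others, and mitochondrially encoded genes took 10.9% to 15.5% of the sum. Depth came from steps in low values of 4521 genes with 1 transcript, of which 22.0% to 25.8% lay within 0.02 of a whole fragment, against medians of 3.06% to 3.36% at other steps. Since most values did not come out whole, a count test was not used. Differences were of log2(FPKM + 1). Alternatives were a pseudocount of 0.1, no filter, a filter at 5 FPKM, 2 rescalings and centring. The 8 genes and 14 lists were chosen with earlier results of these data known. Named besides them were at most 4 genes per list, with the largest difference of PRP-MNs against NC among those at 5 FPKM, the 3 genes nearest in pattern, and Vps25 for its exons shared with Ramp2. Genes that met this rule but are not named are not reported here. The calculation was run on simulated data, where all 200 changed genes were recovered in each comparison. Such a run checks the arithmetic only and gives no measure of the spread between animals. Python 3.11.15, pandas 2.3.3, numpy 2.4.6 and scipy 1.17.1 were used.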

Additional observations from a re-analysis of the deposited data

Results flagged for a closer look

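The same treatment went with opposite directions depending on the other treatment in 4 genes. None of these differences between differences was tested, since each rests on 4 single libraries. Ramp2 was lower by 0.11 in PRP-MNs than in MNs but differed by 2.78 between PRP and NC, and it was at −0.84 in PRP-MNs against PRP and at 2.06 in MNs against NC, a difference of differences of −2.90. Its value in PRP is the one beside which Vps25, with shared exons, was lowest. Calcb was at 0.57 in PRP-MNs against MNs and at −0.99 in PRP against NC (1.56). The first of these rests on overlapping counting intervals. Since the MNs and NC values chose Calcb, nothing is read from either difference. Adm was at −0.16 in PRP-MNs against MNs, also within counting error, and at 1.25 in PRP against NC (−1.41). Ramp3 was at 0.52 in PRP-MNs against PRP and at −0.44 in MNs against NC (0.96), both within counting error.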

How the results depend on the processing

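The number of genes at least 2-fold apart stayed within 1.5 times in 4 of the 5 comparisons under each alternative. In PRP-MNs against MNs, where 1 gene was counted, the count was 2 with a pseudocount of 0.1, where Calcb came to 1.01, and 0 with a filter at 5 FPKM, which leaves Ramp3 out. Over 187 recomputed differences of single genes, 182 kept their side of 2-fold, 4 passed it and 1 dropped below it. Among those that kept it, 30 without a filter and 23 with the filter at 5 FPKM could not change. A filter leaves the difference of a single gene as it was. Calcb in PRP against NC passed at −1.04 with a pseudocount of 0.1 and at −1.03 after centring, and the difference of differences of Ramp3 reached 1.35 with a pseudocount of 0.1. The difference of differences of Ramp1 was 0.03 and came to −0.04 with every library rescaled to the same FPKM sum, and no other value changed sign. No paired analysis was possible because each group has 1 library. Low levels limit Calca, Adm2 and, in libraries with microneedles, Calcb.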

Other observations

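Markers of other skin compartments differed in their own ways from the peptide and receptor genes. Of all genes tested, 17.6% in PRP-MNs, 7.78% in PRP and 15.7% in MNs were at least 2-fold higher than in NC. Fibroblast markers were so for 2 of 7 in PRP-MNs, 6 of 7 in PRP and 7 of 7 in MNs. Their summed levels were 1004 FPKM for PRP-MNs, 1856 FPKM for PRP, 7237 FPKM for MNs and 866 FPKM for NC. The fibrillar collagen gene Col3a1 stood at 289.6 FPKM for PRP-MNs, 552 FPKM for PRP, 1983 FPKM for MNs and 226 FPKM for NC. Adm, which was close in both libraries with microneedles, did not show that gap between them. Schwann cell markers were higher for 2 of 6 tested in PRP-MNs, 3 of 6 in PRP and 5 of 7 in MNs, with summed levels of 104 FPKM, 121 FPKM and 121 FPKM in these libraries and 38.9 FPKM for NC. Skeletal muscle markers passed 2-fold above NC for 2 of 6 in PRP and 0 of 6 in PRP-MNs and in MNs, with Neb at 111 FPKM for PRP and 36.7 FPKM for NC, and their sums ran from 5170 FPKM for MNs to 9277 FPKM for PRP.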
